A study of Mus musculus with 22 samples.

Results

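The colony-stimulating factor genes examined here are 8 genes taken by name from a table of 17966 genes: the receptor chains Csf2rb, Csf2rb2, Csf2ra, Il3ra, Csf1r and Csf3r, and the ligands Csf1 and Csf2. All 8 had a row in the table. Tests across genes took those with a normalized count of at least 10 in at least 5 tumours, which left 14278 genes and 7 of the 8 members, all but Csf2. Csf3r reached 10 in 1 of 5 untreated tumours and in 5 of 6, 4 of 6 and 5 of 5 tumours of the treated groups, so it was tested through the groups in which it was high. RNA was read from the 3′ ends of transcripts in 22 mouse pancreatic tumours.

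The tumours grew in the pancreas from implanted PDA.7940B cells, a polyclonal line of pancreatic ductal adenocarcinoma derived from the KPC mouse model, and all are labelled with the genotype WT. The groups were 5 untreated tumours, 6 after beta-glucan, 6 after anti-CD40 and 5 after the combination of both agents, and treated tumours were taken 10 days after treatment. Beta-glucan, a glucose polymer of fungal and grain cell walls that binds the myeloid receptor Dectin-1, was given as a single intravenous dose of 1.2 mg. Anti-CD40 (clone FGK45), an antibody that activates CD40 on antigen-presenting cells, was given as a single intraperitoneal dose of 0.1 mg. The labels give no dose for the combination. Nothing in them ties the tumours to separate mice, and the p-values therefore reflect only how much these samples vary. The line is polyclonal but is a single line, and a piece of tissue holds tumour, stromal and immune cells together. In such bulk samples more cells of a type and more RNA per cell cannot be told apart.

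Colony-stimulating factors are cytokines that control how myeloid cells are made, survive and act. GM-CSF, encoded by Csf2, signals through an alpha chain (Csf2ra) and a beta chain (Csf2rb) that is shared with the receptors for interleukin-3 and interleukin-5; mice carry an additional beta chain, Csf2rb2, that serves interleukin-3 with the alpha chain Il3ra. M-CSF, encoded by Csf1, signals through the tyrosine kinase Csf1r, on which macrophages depend, and G-CSF signals through Csf3r, a receptor of neutrophils and their precursors.

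Depth, recovered from the deposited values, ranged, in M reads, from 7.38 to 9.34 (untreated), 7.13 to 8.74 (beta-glucan), 6.33 to 21.2 (anti-CD40) and 12.2 to 18.8 (combination). Markers of acinar cells, the enzyme-producing cells of normal pancreas, took a median of 2.24% of the reads in untreated tumours (range 0.0153 to 12.6%) and 1.95% with beta-glucan (0.404 to 12.8%). Their share was 22.2% with anti-CD40 (0.453 to 48.2%) and 20.9% with the combination (0.431 to 25.7%). Summed epithelial markers, which include Epcam and Krt19, ran from 31771 to 42929.9 normalized counts in untreated tumours and from 3598 to 9092 with the combination; by limma 2 of 9 were lower with beta-glucan, 7 with anti-CD40 and 9 with the combination. Untreated tumour 6 stood apart from the other untreated tumours in its macrophage markers: their summed level was 90593 against 27006 to 34223 in the other 4, and 9 of 12 macrophage markers were highest in it.

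The receptor genes lie at several loci, given here on GRCm38 with GENCODE M21 gene limits. Csf2rb (chr15:78325752-78353847, plus strand) and Csf2rb2 (chr15:78282507-78305721, minus strand) are neighbours that point away from each other with 20030 bases between them. Their longest transcripts share 892 of 4851 and of 4691 stretches of 50 bases, but 0 of the 951 such stretches in the last 1000 bases, the end from which these libraries are read. Csf2ra (chr19:61223957-61228429, minus), Il3ra (chr14:14346275-14356011, plus), Csf3r (chr4:126024550-126044440, plus), Csf1 (chr3:107741048-107760469, minus) and Csf2 (chr11:54247271-54249667, minus) lie apart. The use of strand in counting is not given in the sources used here, so reads of Csf2 and its antisense gene Gm12223, or of Il3ra and its antisense gene Gm48860, cannot be told apart.

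The 250 bases before the annotated start are shown for 3 members: the receptor chains Csf2rb2 and Csf2ra, whose levels differed between the groups, and the ligand Csf1, for comparison. They are RefSeq sequences of GRCm38.p6, printed 5′ to 3′ on the strand of the gene, at chr15:78305722-78305971, chr19:61228419-61228668 and chr3:107760470-107760719, all on the minus strand. Capitals mark GAGGAA, the core letters bound by the myeloid transcription factor PU.1, or TTCCTC, the same letters on the opposite strand.
Csf2rb2: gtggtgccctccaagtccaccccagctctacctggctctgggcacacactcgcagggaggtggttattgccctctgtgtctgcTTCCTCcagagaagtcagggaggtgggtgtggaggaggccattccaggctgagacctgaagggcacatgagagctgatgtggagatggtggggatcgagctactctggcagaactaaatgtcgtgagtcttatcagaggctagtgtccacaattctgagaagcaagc
Csf2ra: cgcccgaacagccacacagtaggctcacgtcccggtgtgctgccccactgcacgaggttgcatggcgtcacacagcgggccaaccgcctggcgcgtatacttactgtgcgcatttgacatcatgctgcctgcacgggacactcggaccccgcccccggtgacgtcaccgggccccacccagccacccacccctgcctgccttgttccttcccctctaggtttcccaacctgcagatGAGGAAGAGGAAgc
Csf1: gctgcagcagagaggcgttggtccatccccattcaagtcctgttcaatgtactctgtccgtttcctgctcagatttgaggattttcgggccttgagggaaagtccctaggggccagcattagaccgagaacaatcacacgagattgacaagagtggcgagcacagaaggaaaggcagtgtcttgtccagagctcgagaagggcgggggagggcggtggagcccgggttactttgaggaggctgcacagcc
The letters stood once in the Csf2rb2 window, starting 167 bases upstream on the opposite strand, and at 14 and 8 bases upstream in the Csf2ra window, with no overlap between matches. GENCODE M21 places the last 11 bases of the Csf2ra window in an exon of that gene, so the match at 8 lies within the exon and that at 14 partly. They were not in the Csf1 window. Of the 6 members with a promoter entry, Csf2rb2, Csf2ra and Csf3r held them and Csf1, Csf2 and Il3ra did not. Of the 250 bases, GENCODE M21 places 220 for Il3ra and 109 for Csf3r in exons of these genes. The Csf3r match, starting 86 bases upstream, lies among those 109. These windows are therefore not upstream sequence alone. The Csf2 window, chr11:54249900-54250149 on the minus strand, does not reach the GENCODE M21 start of that gene at 54249667. The bases between them were not searched. Among 32851 promoter windows of the same length 23.3% held these letters, and a match is a description of letters, not of binding.

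Against untreated tumours, 4 members rose with beta-glucan, 2 with anti-CD40 and 5 with the combination, and 0 fell (limma, Benjamini-Hochberg adjusted p of at most 0.05). Of all 14278 genes, 5.09% rose and 1.32% fell with beta-glucan, 11.0% rose and 7.56% fell with anti-CD40, and 18.2% rose and 15.8% fell with the combination. Csf2rb and Csf2rb2 rose in all 3 treatments. Csf2ra and Csf3r rose with beta-glucan and with the combination, Csf1r with the combination, and Csf1 and Il3ra passed the test in none. The 3 comparisons share the same 5 untreated tumours. The median log2 fold change of the 7 tested members was 1.89, 1.18 and 1.72, beside 0.02, 0.00 and -0.01 over all genes tested.

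**Figure D1:**
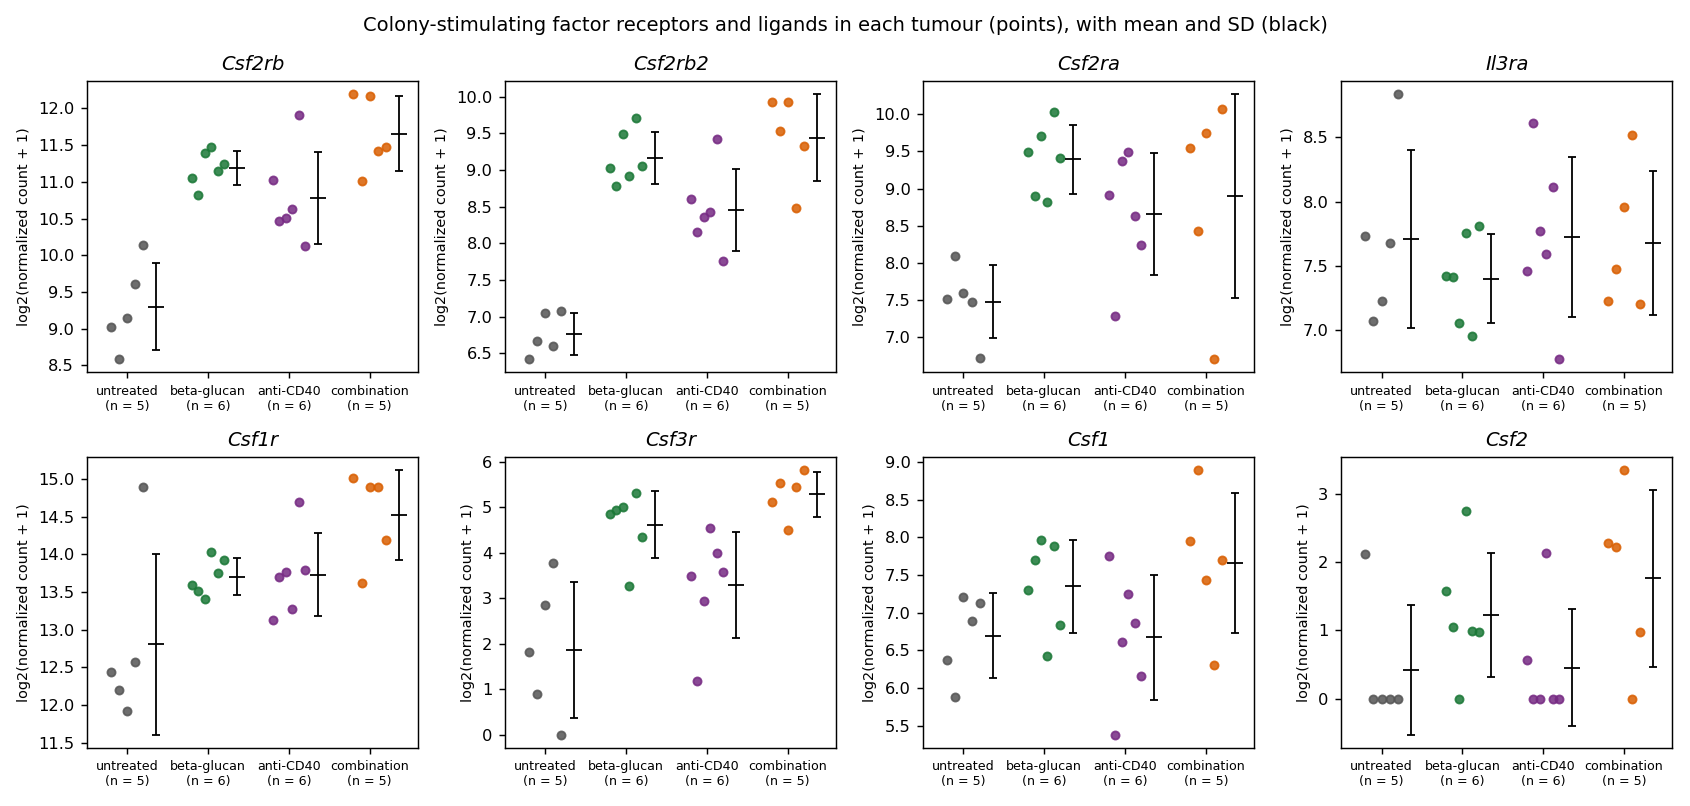
Normalized counts of the 8 genes on a log2(value + 1) scale, with 1 point per tumour for 4 groups and the mean and SD in black beside the points. Csf2rb2 separates every treated tumour from the untreated ones, while Csf1r in untreated tumour 6 sits at 30451 normalized counts among the treated tumours.

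Csf2rb, the common beta chain, had normalized counts of 519, 384, 566, 778 and 1122 in untreated tumours 1, 2, 3, 5 and 6. With beta-glucan its counts ran from 1816 to 2858 with a median of 2341, and with anti-CD40 from 1119 to 3846 with a median of 1524. With the combination they were 4681, 2068, 4615, 2729.7 and 2857 in tumours 1 to 5. All beta-glucan and combination tumours lay above every untreated tumour, as did 5 of 6 anti-CD40 tumours; groups did not overlap in this direction for 3.98% of all genes with beta-glucan and for 11.7% with the combination. The means were 674 ± 288 (SD, n = 5) in untreated tumours, 1919 ± 995 with anti-CD40 (n = 6), 2359 ± 379 with beta-glucan (n = 6) and 3390.2 ± 1187 with the combination (n = 5). The rise was 3.70-fold with beta-glucan (log2 fold change 1.89 ± 0.29 SE, limma adjusted p = 0.000168) and 5.12-fold with the combination (2.36 ± 0.30, adjusted p = 2.23e-06). With anti-CD40 it was 2.79-fold (1.48 ± 0.29, adjusted p = 0.00071). The order of the means was untreated, anti-CD40, beta-glucan and combination, but the treated neighbours did not differ beyond their spread: anti-CD40 against beta-glucan gave -0.41 (adjusted p = 0.508) and the combination against beta-glucan gave 0.47 (adjusted p = 0.297).

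Csf2rb2, the beta chain that serves interleukin-3, had the smallest adjusted p of the members in each of the 3 comparisons against untreated tumours. Untreated tumours held 84.9, 101, 132, 96.2 and 134 normalized counts. Beta-glucan tumours held 440.4 to 838 with a median of 523, anti-CD40 tumours 215 to 687 with a median of 335, and the combination tumours 976, 736, 970.4, 357 and 639. Every treated tumour in each of the 3 groups lay above every untreated tumour; for anti-CD40 that holds for 5.03% of all genes. The group means were 109.5 ± 22.05 (SD, n = 5) without treatment, 373 ± 164 with anti-CD40 (n = 6), 587 ± 156 with beta-glucan (n = 6) and 736 ± 257 with both (n = 5). Beta-glucan gave a 5.27-fold rise (log2 2.40 ± 0.27 SE, limma adjusted p = 1.08e-05), anti-CD40 a 3.22-fold rise (1.69 ± 0.27, adjusted p = 0.000102) and the combination a 6.38-fold rise (2.67 ± 0.28, adjusted p = 2e-07). The calls for both beta chains with beta-glucan and with the combination held under all 37 alternatives. With anti-CD40 both were lost when the values were rescaled to equal totals, at 0.90 for Csf2rb (adjusted p = 0.156; range over the alternatives 1.58e-05 to 0.156) and 1.11 for Csf2rb2 (adjusted p = 0.0937; range 4.19e-08 to 0.0937).

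Csf2ra, the alpha chain that gives the receptor its specificity for GM-CSF, was less even. It had 182, 272, 192, 176 and 104 normalized counts in the untreated tumours and 451 to 1039.7 with a median of 698 in the beta-glucan tumours. Anti-CD40 tumours ran from 154 to 717 with a median of 438, and the combination tumours held 745, 344, 858, 104 and 1071. All 6 beta-glucan tumours, 5 of 6 anti-CD40 tumours and 4 of 5 combination tumours exceeded every untreated tumour. Combination tumour 4, with 78 reads of the gene, was at the level of the lowest untreated tumour. Means were 185 ± 59.7 (SD, n = 5) in untreated tumours, 452 ± 215 (n = 6) with anti-CD40, 624 ± 393 (n = 5) with the combination and 700.2 ± 222 (n = 6) with beta-glucan.

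The rise of Csf2ra was 3.77-fold with beta-glucan (log2 1.92 ± 0.47 SE, limma adjusted p = 0.0157) and 2.68-fold with the combination (1.42 ± 0.49, adjusted p = 0.0293). With anti-CD40 the log2 fold change of 1.18 ± 0.47 missed the threshold (adjusted p = 0.0869). The beta-glucan call was lost with equal totals (1.96, adjusted p = 0.115; range over 37 alternatives 0.000114 to 0.115). The combination call was lost in 8 of 37 alternatives, at adjusted p from 0.0505 to 0.262, among them leaving out untreated tumour 5 (1.42) or 6 (1.23) or combination tumour 1 (1.26), 3 (1.21) or 5 (1.13). Leaving out combination tumour 4 raised it to 1.97. With anti-CD40 the call was gained in 6 alternatives, among them leaving out anti-CD40 tumour 2 (1.45), combination tumour 4 (1.18) or the 7 tumours with over 20% acinar reads (1.29), at adjusted p from 0.0138 to 0.05. The neighbours in the order of means did not differ beyond their spread; the combination against beta-glucan gave -0.49 (adjusted p = 0.529).

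Il3ra, the alpha chain for interleukin-3, did not follow its beta chains. Untreated tumours held 211, 134, 149, 204 and 456 normalized counts, beta-glucan tumours 123 to 223 with a median of 169.9, anti-CD40 tumours 109 to 391 with a median of 205, and combination tumours 149, 177, 248, 367 and 146. All 4 groups overlapped, and their means lay between 172 ± 41.1 (SD, n = 6, beta-glucan) and 231 ± 130.2 (n = 5, untreated). The log2 fold changes against untreated tumours were -0.31 ± 0.32 SE with beta-glucan, 0.01 ± 0.32 with anti-CD40 and -0.03 ± 0.34 with the combination (limma adjusted p = 0.675, 0.986 and 0.952). Untreated tumour 6 was again the highest of its group; without it the untreated mean was 175 ± 38.8 (n = 4).

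**Figure D2:**
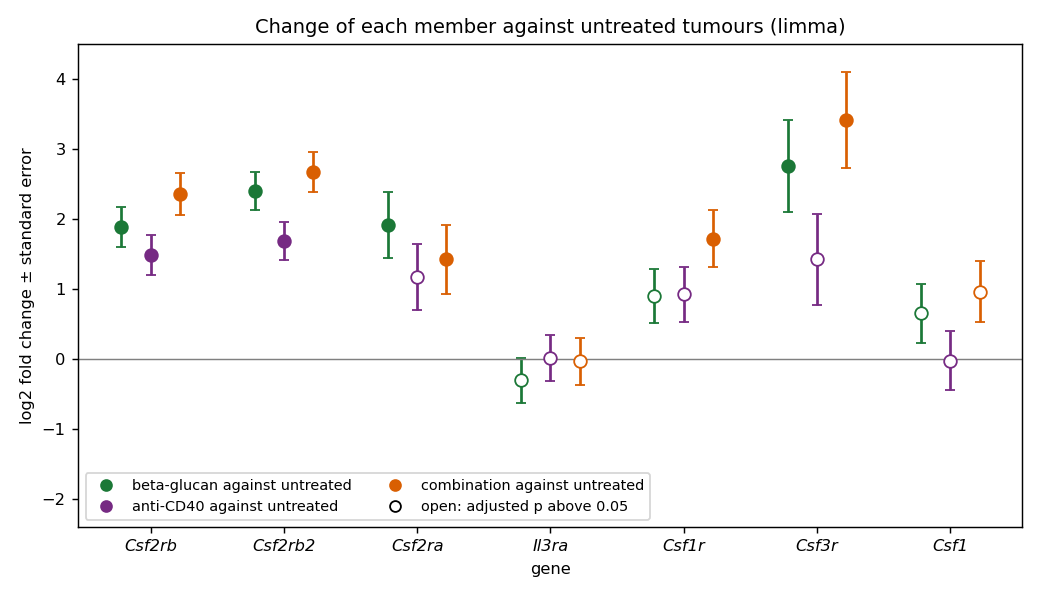
Log2 fold changes of the 7 tested members against untreated tumours with their standard errors (limma), for beta-glucan, anti-CD40 and the combination; filled points have an adjusted p of at most 0.05. Csf2rb and Csf2rb2 are filled in all 3 comparisons, and Il3ra lies at -0.31, 0.01 and -0.03.

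Csf1r, the M-CSF receptor of macrophages (chr18:61100598-61132149, plus strand), overlaps Hmgxb3 on the other strand, and reads of the pair cannot be told apart. Hmgxb3 itself did not pass the test against untreated tumours in any treatment (log2 fold changes of -0.02, -0.17 and -0.16). For Csf1r, untreated tumours 1, 2, 3 and 5 held 5542, 4696, 3886 and 6067 normalized counts, and untreated tumour 6 held 30451. Beta-glucan tumours ran from 10812 to 16730.3 with a median of 13074, anti-CD40 tumours from 8935 to 26556 with a median of 13608, and the combination tumours held 32951, 12563, 30343, 30344 and 18729. Every treated tumour lay above the other 4 untreated tumours, but tumour 6 exceeded all treated tumours except combination tumour 1. The means were 10128 ± 11391 (SD, n = 5) without treatment, 13489.8 ± 2297 (n = 6) with beta-glucan, 14469 ± 6313 (n = 6) with anti-CD40, and the combination stood at 24986 ± 8864 (n = 5).

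With all tumours in the fit, Csf1r rose with the combination by 3.28-fold (log2 1.72 ± 0.41 SE, limma adjusted p = 0.00227). The differences of 0.90 ± 0.39 with beta-glucan and 0.92 ± 0.39 with anti-CD40 did not pass (adjusted p = 0.2 and 0.105). Without untreated tumour 6 both passed: beta-glucan gave 1.42 ± 0.27 (adjusted p = 0.00137; range over the 37 alternatives 0.00137 to 0.68) and anti-CD40 1.44 ± 0.27 (adjusted p = 0.000528; range 0.000528 to 0.592). The other alternatives left both short of the threshold. The untreated mean without tumour 6 was 5048 ± 959 (n = 4).

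Some macrophage markers rose in each of the 3 treatments, while Csf1r, with all tumours in the fit, passed only with the combination. The summed level of 12 of 12 markers ran from 27006 to 90593 normalized counts in untreated tumours, 40339 to 81149.7 with beta-glucan, 70586 to 159311 with anti-CD40 and 90305 to 192171 with the combination. By limma 0 of the 12 were lower against untreated tumours. Higher were 4 with beta-glucan, 10 with anti-CD40 and 11 with the combination, beside 5.09%, 11.0% and 18.2% of all genes. Without untreated tumour 6 the number with beta-glucan was 10, and with equal totals the numbers were 1, 3 and 9. Measured within each tumour, log2 Csf1r minus the mean log2 of the macrophage markers was 3.19 ± 0.81 (SD, n = 5) untreated, 3.13 ± 0.27 (n = 6) with beta-glucan, 2.73 ± 0.39 (n = 6) with anti-CD40, and the combination stood at 2.85 ± 0.54 (n = 5). In the comparisons against untreated tumours the means of this quantity differed by -0.06, -0.47 and -0.35, with two-sided exact permutation p of 0.911, 0.247 and 0.508. Without untreated tumour 6 the untreated mean was 2.84 ± 0.23 (SD, n = 4) and the differences were 0.29, -0.11 and 0.01, with exact permutation p of 0.138, 0.595 and 0.976, so the sign turned with beta-glucan and with the combination. The part of macrophage content in the Csf1r difference was not tested further.

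**Figure D3:**
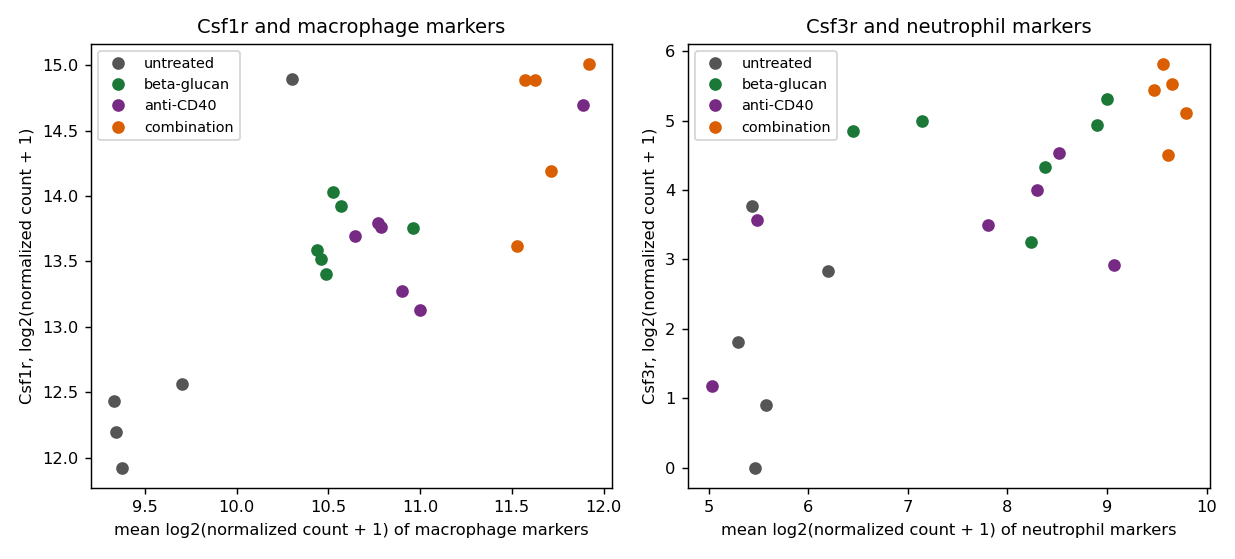
Csf1r against the mean of 12 macrophage markers and Csf3r against the mean of 14 neutrophil markers, all on the log2(value + 1) scale, with 1 point per tumour and a colour per group. Untreated tumour 6 lies furthest above its macrophage marker mean in Csf1r, by 4.59 on the log2 scale, and the combination tumours lie at the right of the neutrophil plot, with marker means from 9.47 to 9.79.

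Csf3r, the G-CSF receptor, was read at few counts. Untreated tumours held 2.50, 0.863, 6.14, 12.6 and 0 normalized counts, from 3, 1, 7, 11 and 0 reads. Beta-glucan tumours ran from 8.55 to 38.7 with a median of 28.8, anti-CD40 tumours from 1.27 to 22.1 with a median of 10.6, and the combination tumours held 33.4, 45.1, 21.7, 42.5 and 55.3. All combination tumours and 5 of 6 beta-glucan tumours lay above every untreated tumour, against 2 of 6 anti-CD40 tumours. The means were 4.42 ± 5.14 (SD, n = 5), 25.8 ± 10.5 (n = 6, beta-glucan), 11.0 ± 7.12 (n = 6, anti-CD40) and 39.6 ± 12.7 (n = 5, combination).

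On the log2(value + 1) scale Csf3r rose by 2.75 ± 0.65 SE with beta-glucan (limma adjusted p = 0.0111) and by 3.42 ± 0.68 with the combination (adjusted p = 0.00042). The size depends on the pseudocount: with 8 in place of 1 the rises were 1.46 and 1.98, still past the threshold. The difference of 1.42 ± 0.65 with anti-CD40 did not pass (adjusted p = 0.136) and passed without anti-CD40 tumour 2, the lowest of its group (1.84, adjusted p = 0.0403; range over 37 alternatives 0.0403 to 0.331).

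Neutrophil markers were also compared, and some of them passed with anti-CD40, where Csf3r did not. Their sum over 14 of 14 genes ran from 2203 to 5522 normalized counts in untreated tumours, 13341 to 21349 with beta-glucan, 2496 to 26547 with anti-CD40 and 29357 to 42469.9 with the combination, and Ly6g was at 0 in every untreated tumour. By limma 7 were higher with beta-glucan, 7 higher and 2 lower with anti-CD40, and 12 higher with the combination. Ly6g is counted as higher in all 3, and with 0 in every untreated tumour it was tested through the treated groups. The shares of all genes were 5.09%, 11.0% and 18.2% higher, and 7.56% lower with anti-CD40. Log2 Csf3r minus the mean log2 of these markers was -3.73 ± 1.44 (SD, n = 5) untreated, -3.40 ± 1.27 (n = 6) with beta-glucan, -4.08 ± 1.35 (n = 6) with anti-CD40, and the combination stood at -4.34 ± 0.55 (n = 5). The exact permutation p of the 3 differences from untreated tumours was 0.701, 0.675 and 0.429. Those differences were 0.33, -0.35 and -0.61, and without untreated tumour 6 they were -0.10, -0.79 and -1.04 (exact permutation p of 0.905, 0.352 and 0.127), so the beta-glucan value changed sign. Whether neutrophil number accounts for the Csf3r difference was not tested further.

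Among the ligands, Csf1 did not pass the test in any treatment. Untreated tumours held 81.5, 57.8, 147, 118 and 139 normalized counts, beta-glucan tumours 84.6 to 248 with a median of 181, anti-CD40 tumours 40.7 to 215 with a median of 106, and combination tumours 246, 476, 173, 78.4 and 207. The highest value was in combination tumour 2, and each treated group overlapped the untreated tumours. The log2 fold changes were 0.65 ± 0.42 SE with beta-glucan, -0.03 ± 0.42 with anti-CD40 and 0.96 ± 0.44 with the combination (limma adjusted p = 0.442, 0.977 and 0.0959). The combination passed in 2 of 37 alternatives: without combination tumour 4 (1.30, adjusted p = 0.0218) and with DESeq2 on the recovered reads (1.12, adjusted p = 0.0319), in a range of 0.0218 to 0.532.

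Csf2, the gene of GM-CSF, was at the limit of detection. Over the groups 4, 11, 3 and 24 reads were recovered in untreated, beta-glucan, anti-CD40 and combination tumours. Untreated tumour 1 held 3.33 normalized counts and the other 4 held 0, and 4 of the anti-CD40 tumours also held 0. Beta-glucan tumours ran from 0 to 5.70 with a median of 1.03, and combination tumours held 3.86, 3.65, 9.17, 0 and 0.970. All 4 groups overlapped. The largest difference from untreated tumours was 2.87 normalized counts with the combination (means 3.53 ± 3.57 SD, n = 5, and 0.666 ± 1.49, n = 5; two-sided exact permutation p = 0.0873, adjusted over 6 comparisons 0.262). The smallest p that 5 tumours against 5 can give is 0.00794.

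The treated groups were also compared directly. None of the 7 tested members passed in the combination against beta-glucan (1 at an unadjusted p under 0.05; edgeR 0, DESeq2 0), where 14.1% of all genes passed and 28.4% had an unadjusted p under 0.05. None passed in anti-CD40 against beta-glucan (2 unadjusted, both lower with anti-CD40; edgeR 0, DESeq2 0), where the shares of all genes were 2.10% and 14.4%. In the combination against anti-CD40 limma called 0 and edgeR 0, with 4 at an unadjusted p under 0.05, all higher with the combination, and DESeq2 called 2, Csf2rb2 and Csf3r; 1.48% of all genes passed by limma and 15.7% had an unadjusted p under 0.05. The values nearest the threshold there were 0.99 ± 0.27 SE for Csf2rb2 (limma adjusted p = 0.0637), 0.87 ± 0.29 for Csf2rb (adjusted p = 0.117) and 1.997 ± 0.65 for Csf3r (adjusted p = 0.118).

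Single tumours decided some of these calls. Without anti-CD40 tumour 5, the combination exceeded anti-CD40 for Csf2rb (1.10, adjusted p = 0.0133) and for Csf2rb2 (1.18, adjusted p = 0.00674). Without combination tumour 4 it did so for Csf2rb2 (1.22, adjusted p = 0.0293). Over the 37 alternatives adjusted p ran from 0.0133 to 0.999 for Csf2rb and from 0.00674 to 0.999 for Csf2rb2. Without untreated tumour 6, Csf1r was higher with the combination than with beta-glucan (0.82, adjusted p = 0.0295; range 0.0286 to 0.66).

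The interaction sets the log2 effect of the combination against the effects of beta-glucan and anti-CD40 added up. It was below 0 at an unadjusted p under 0.05 for 3 members, Csf2rb2 (-1.41 ± 0.38 SE), Csf2rb (-1.01 ± 0.40) and Csf2ra (-1.67 ± 0.67), a direction and level that 5.20% of all genes reached. None passed after adjustment (limma adjusted p = 0.213, 0.453 and 0.456; edgeR called 0), and 0.0210% of all genes did. DESeq2 on the recovered reads called Csf2rb2 alone (-1.45, adjusted p = 0.049; range over 36 alternatives 0.049 to 1). For Csf1r the interaction was -0.10 ± 0.55 (adjusted p = 0.976).

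Differences between receptors within a tumour do not depend on its size factor except through the pseudocount, and were compared over 42 pairs of ratio and comparison. None passed after adjustment, 2 had an exact unadjusted p under 0.05, and the smallest adjusted p was 0.0909. The smallest belonged to Csf1r minus Csf2rb with beta-glucan against untreated tumours. That log2 difference was 3.41, 3.61, 2.78, 2.96 and 4.76 in the untreated tumours and 2.01 to 2.69 with a median of 2.58 in the beta-glucan tumours. All 6 beta-glucan tumours lay below every untreated tumour, and the means were 2.51 ± 0.25 (SD, n = 6) and 3.50 ± 0.78 (n = 5), a difference of -0.99. Its two-sided exact permutation p of 0.00216 is the smallest that 6 tumours against 5 can give. Over 42 comparisons that p adjusts to 0.0909, so 1 ratio alone could not pass at 0.05 however far apart its groups lay. Without untreated tumour 6 the difference was -0.68 (exact permutation p = 0.00476, adjusted over 42 comparisons 0.2), with all 6 beta-glucan tumours still below the other 4. The combination stood at 2.86 ± 0.35 (n = 5) and anti-CD40 at 2.95 ± 0.55 (n = 6). Csf2ra minus Csf2rb overlapped in all groups, with means of -1.82 ± 1.07, -1.80 ± 0.51, -2.13 ± 0.94 and -2.76 ± 1.20 in untreated, beta-glucan, anti-CD40 and combination tumours. Without untreated tumour 6 the untreated mean was -1.42 ± 0.68 (SD, n = 4) and the combination differed from it by -1.33 (exact permutation p = 0.0635).

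**Figure D4:**
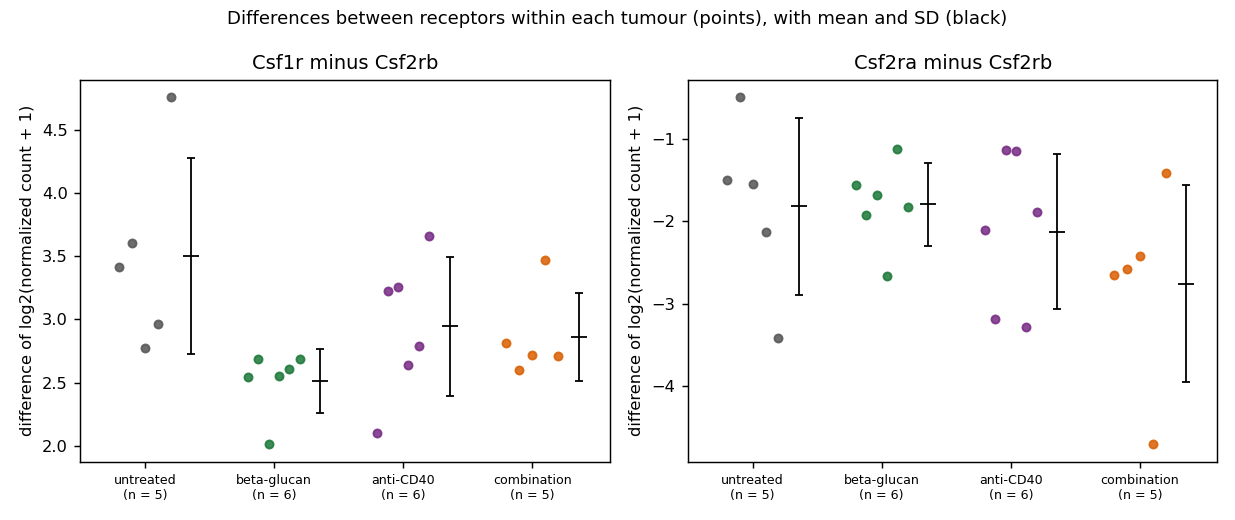
Csf1r minus Csf2rb and Csf2ra minus Csf2rb within each tumour, as differences of log2(value + 1), with 1 point per tumour and the mean and SD in black. The 6 beta-glucan tumours lie between 2.01 and 2.69 for Csf1r minus Csf2rb, below the 5 untreated tumours, which start at 2.78.

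Of 9 other ligands and receptors of the family, Il3 and Il5 were not analysed here and the other 7 were tested. Kitl, the gene of stem cell factor, fell in all 3 treatments. Untreated tumours held 228 to 569 normalized counts with a median of 418, and the combination tumours held 172, 158, 165, 199 and 133. These all lay below the untreated ones, and the share of all genes that do so is not given here. The fall was 0.77 ± 0.23 SE on the log2 scale with beta-glucan (limma adjusted p = 0.0462), 1.07 ± 0.23 with anti-CD40 (adjusted p = 0.00215) and, for the combination, 1.25 ± 0.24 (adjusted p = 0.000316). Kit, its receptor, which mast cells carry, rose 2.18-fold with the combination (adjusted p = 0.0322). Of 6 tested markers of mast cells and basophils, 2 rose there, Kit itself and Hdc, and 1 fell, Mcpt8. Beside them, 18.2% of all genes rose and 15.8% fell with the combination.

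Flt3l, a growth factor for dendritic cells that shares its locus with Gm45713, rose 3.13-fold with anti-CD40 (limma adjusted p = 0.00343) and, for the combination, 2.94-fold (adjusted p = 0.00368). Its untreated values ran from 17.5 to 63.0 normalized counts and its anti-CD40 values from 74.3 to 136. With anti-CD40 the groups did not overlap in this direction for 5.03% of all genes. Il5ra, the alpha chain for interleukin-5, fell by 2.95 ± 0.88 SE with the combination (limma adjusted p = 0.012). Its means were 24.7 ± 11.9 normalized counts (SD, n = 5) untreated and 3.84 ± 4.83 (n = 5) with the combination. It reached 10 normalized counts in 5 of 5 untreated, 5 of 6 beta-glucan, 2 of 6 anti-CD40 and 1 of 5 combination tumours, so it was tested through the groups in which it was high. Csf3, Il34 and Flt3 did not pass against untreated tumours; Il34, the other ligand of Csf1r, had means of 1211 ± 599 (SD, n = 5), 1015 ± 464 (n = 6), 959 ± 353 (n = 6) and 885 ± 455 (n = 5). With equal totals the calls of Kitl with beta-glucan, Flt3l in both comparisons and Kit were lost, and without the tumours over 20% acinar reads so were Kitl with beta-glucan, Kit and Il5ra (adjusted p of 0.0513, 0.347 and 0.0502). The Kit call was also lost with quantile normalization, with equal totals outside the acinar markers and with edgeR (adjusted p of 0.0693, 0.0704 and 0.0546), and that of Kitl with beta-glucan with equal totals outside the acinar markers (adjusted p = 0.277).

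The list of JAK-STAT and kinase signalling holds 18 genes that carry or restrain the signal below these receptors. With beta-glucan 9 rose, with anti-CD40 9 and with the combination 14, and none fell. Of all genes 5.09%, 11.0% and 18.2% rose. The median log2 fold changes of the list were 0.72, 0.93 and 1.39. Ptpn6, Inpp5d and Tyrobp rose in all 3 treatments. Of the Jak and Stat genes listed, Jak1, Stat3 and Stat5b rose, and only with the combination. Fgr, a Src-family kinase of myeloid cells, rose from 108 ± 52.5 normalized counts (SD, n = 5) to 506 ± 80.6 (n = 6), 340.2 ± 87.0 (n = 6) and 688 ± 172 (n = 5) in the 3 treatments. Tyrobp, the adaptor DAP12, rose 3.23-, 3.73- and 6.79-fold. Pik3cd, a phosphoinositide kinase of leukocytes, rose 2.49-fold with beta-glucan and 5.06-fold with anti-CD40, and was higher with anti-CD40 when the single agents were set against each other (1.02 ± 0.25 SE, limma adjusted p = 0.0295). That call was kept in 5 of 7 alternatives (adjusted p 0.00233 to 0.476). In the same comparison 6 of 7 tested T cell markers and 4 of 4 tested B cell markers were higher with anti-CD40, at medians of 2.53 and 3.31 on the log2 scale, and their part was not tested. With equal totals 3, 5 and 9 genes of the list rose and 1 fell with anti-CD40; the calls lost there include Pik3cd with beta-glucan (adjusted p = 0.114) and Fgr with anti-CD40 (1.18, adjusted p = 0.0505).

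Of 12 tested feedback and survival genes that STAT proteins control, 2 rose with beta-glucan, 2 rose and 2 fell with anti-CD40, and 3 rose and 2 fell with the combination. In the same comparisons 5.09%, 11.0% and 18.2% of all genes rose and 1.32%, 7.56% and 15.8% fell. The counts were not tested against these shares. Bcl2a1a, a survival gene with near-identical copies among which reads could be split, rose from 107 ± 30.7 normalized counts (SD, n = 5) to 522 ± 59.6 (n = 6) with beta-glucan, 327 ± 158 (n = 6) with anti-CD40 and 618 ± 322 (n = 5) with both. Its anti-CD40 call was lost with equal totals, over all genes and outside the acinar markers (adjusted p of 0.233 and 0.0817). Cish, a feedback inhibitor induced through STAT5, rose 1.99-, 2.16- and 2.29-fold. The beta-glucan call was lost under edgeR, without untreated tumour 6 and in all 3 rescalings (adjusted p of 0.0518 to 0.393). With equal totals the Cish calls of the other treatments were lost too. They were also lost with equal totals outside the acinar markers (limma adjusted p of 0.167 with anti-CD40 and 0.0891 with the combination). Pim1, a kinase gene induced by the same route, fell by 0.61 ± 0.19 SE with anti-CD40 (limma adjusted p = 0.0243) and stood at 0.26 ± 0.19 with beta-glucan (adjusted p = 0.502). Without the tumours over 20% acinar reads the anti-CD40 value of Pim1 was -0.23 (adjusted p = 0.518). Ccnd1, a cell cycle gene, fell with anti-CD40 and with the combination, where epithelial markers were also lower; the anti-CD40 call was lost with edgeR (-0.81, adjusted p = 0.0533) and without the tumours over 20% acinar reads (-0.74, adjusted p = 0.185). With equal totals the counts were 1 rise with beta-glucan, 3 falls with anti-CD40 and 1 rise and 3 falls with the combination, and quantile normalization gave 4 rises and 4 falls with the combination.

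Of 10 myeloid transcription factors, 4 rose and 1 fell with beta-glucan, 5 rose and 2 fell with anti-CD40, and 6 rose and 1 fell with the combination. Beside these stand 5.09%, 11.0% and 18.2% of all genes that rose and 1.32%, 7.56% and 15.8% that fell. Spi1, which encodes PU.1, rose from 242 ± 49.95 normalized counts (SD, n = 5) to 719.5 ± 104 (n = 6), 756 ± 335 (n = 6) and 1201 ± 231 (n = 5). Irf8, a factor of monocytes and dendritic cells, rose 1.99-fold with beta-glucan and 4.36-fold with anti-CD40, and was higher with anti-CD40 than with beta-glucan (1.13 ± 0.20 SE, limma adjusted p = 0.00281), a call kept in 5 of 7 alternatives (adjusted p 1.2e-05 to 0.341); the T and B cell markers given above were higher in the same comparison. Cebpb rose 1.92-fold with beta-glucan and 2.21-fold with the combination. Klf4, which epithelial cells also express, fell by 1.05 ± 0.19, 1.53 ± 0.19 and 1.14 ± 0.20. With equal totals 1, 2 and 4 of the list rose. The calls lost there include Irf8, Cebpb and Klf4 with beta-glucan (adjusted p of 0.236, 0.205 and 0.149), Spi1 with anti-CD40 (0.99, adjusted p = 0.103) and Cebpb with the combination (0.69, adjusted p = 0.18). Irf8 with beta-glucan was also lost with equal totals outside the acinar markers (adjusted p = 0.0530).

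Of 10 genes associated with exposure to GM-CSF, 6 rose with beta-glucan, 4 rose and 1 (Pparg) fell with anti-CD40, and 5 rose with the combination. The shares of all genes that rose were 5.09%, 11.0% and 18.2%, and 7.56% fell with anti-CD40. Il1rn, the interleukin-1 receptor antagonist, held 817 ± 321 normalized counts (SD, n = 5) in untreated tumours and 948 ± 395 (n = 6) with anti-CD40, a difference that did not pass (0.21 ± 0.28 SE, limma adjusted p = 0.667). It stood at 2846 ± 788 (n = 6) with beta-glucan and 2812 ± 969 (n = 5) with the combination. Set directly against beta-glucan, anti-CD40 tumours held less Il1rn (-1.63 ± 0.27 SE, limma adjusted p = 0.00157), a call kept in 6 of 7 alternatives (adjusted p 6.2e-06 to 0.133). In 6 of 6 it lay below every beta-glucan tumour, and the share of all genes without overlap in this comparison is not given here. Car4, a carbonic anhydrase of alveolar macrophages, was also higher with beta-glucan than with anti-CD40, with 12.8 ± 3.83 (n = 5), 100.1 ± 55.8 (n = 6), 7.90 ± 9.45 (n = 6) and 43.0 ± 26.6 (n = 5) in untreated, beta-glucan, anti-CD40 and combination tumours. Anti-CD40 against beta-glucan gave -4.43 ± 0.69 for Car4 (adjusted p = 0.000932), kept in 7 of 7 alternatives (adjusted p 1.24e-06 to 0.0193). Irf4, a transcription factor of myeloid cells and lymphocytes, went the other way in that comparison. It held 26.4 ± 14.9 normalized counts (SD, n = 6) with beta-glucan and 134.8 ± 71.8 (n = 6) with anti-CD40. The difference was 2.33 ± 0.46 SE (limma adjusted p = 0.00552), a call kept in 5 of 7 alternatives (adjusted p 1.62e-05 to 0.11). Irf4 is counted among the rises in all 3 treatments. Its untreated median was 2.59 and its untreated highest 10.0, so it was tested through the treated groups. Of the 10 genes, 1 was thus higher and 2 were lower with anti-CD40 than with beta-glucan, and T and B cell markers were higher there as given above. In that comparison 2.10% of all genes passed in either direction. With equal totals 4, 2 and 5 of the list rose, and without the tumours over 20% acinar reads 7, 5 and 7. The macrophage and neutrophil marker levels given above moved in these same groups, and their part in the list counts was not tested.

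**Figure D5:**
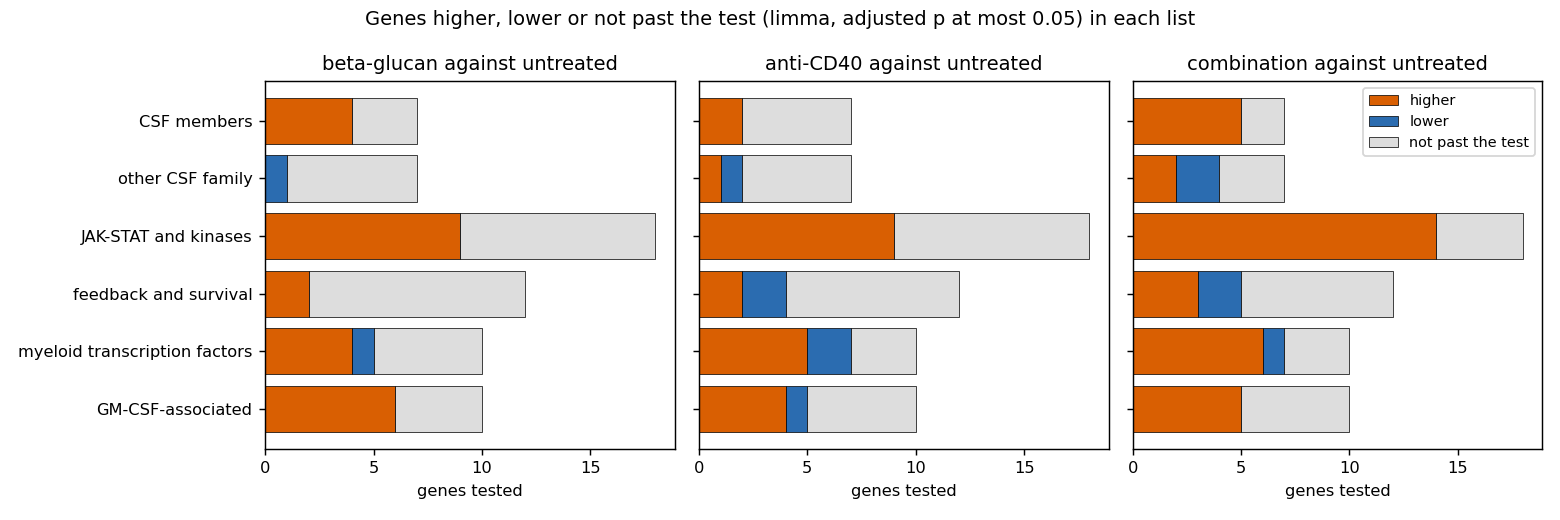
Numbers of genes higher, lower or not past the test (limma, adjusted p of at most 0.05) in each list, for the 3 comparisons against untreated tumours; the horizontal axis counts genes tested. Rises reach 14 of 18 in the JAK-STAT and kinase list with the combination, and the feedback and survival list holds 2 rises and 2 falls with anti-CD40.

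The genes whose levels over the 22 tumours were most like each member were found among 13558 tested genes; they were chosen for their likeness, so r is a description. The tumours share groups and differ in depth, and the part of either in r was not tested. Csf2rb was most like Clec4n, the myeloid lectin Dectin-2 (Pearson r 0.97, Spearman rho 0.89; r of the deviations from group means 0.86), then Ccl6. Csf2rb2 was most like Lilrb4a (r 0.96, rho 0.96; 0.82 within groups), then Clec4n and Plek. Csf1r was most like Fes, a myeloid tyrosine kinase (r 0.96, rho 0.93; 0.93 within groups), then P2ry6 and Cd248. These 3 members had 330, 299 and 297 genes at an r of at least 0.8.

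The remaining members had fewer genes of like pattern. Csf2ra had 17 genes at that level, led by Bcl2a1a (r 0.85, rho 0.76, and 0.77 within groups), with the next genes close behind at r 0.85 and 0.84. Csf3r had 37, led by C5ar1, a chemoattractant receptor of neutrophils and macrophages (r 0.90, rho 0.82, and 0.77 within groups). The genes that followed it were nearly level, at r 0.90 and 0.89. Csf1 had 14, led by Dsel (r 0.90, rho 0.90; 0.87 within groups) and Osm. Il3ra had 40, led by Rnf135 (r 0.88, rho 0.81; 0.88 within groups), Golga2 and Acaca.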

How the data were processed

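Sections of 5 µm from fixed, paraffin-embedded tumours gave the RNA, of which 100 ng went into each library (QuantSeq FWD, a 3′ kit), per the labels' protocols. STAR, DESeq2 and the build mm10 are named, without versions, per the submitters' processing notes. The counting program, the annotation and whether strand was used are not stated there. The values the authors deposited are normalized counts, a signal in which each tumour's counts are divided by a size factor, in 1 table of 17966 genes and 22 tumours. Within each tumour 100% of the 395252 values were whole multiples of 1 step within 0.001 reads, so reads were recovered. Of the gene names 17699 matched GENCODE M21, 23 had turned into dates and 2 occurred more than once.

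Genes that reached a value of 10 in 5 or more tumours were tested with limma 3.58.1 in R 4.3.3 on log2(value + 1), with trended and robust moderation, the means of all 4 groups, two-sided, and Benjamini-Hochberg adjustment over 14278 genes in each of 7 contrasts (threshold 0.05). A fold is 2 to the power of the log2 fold change. Csf2 and 42 differences within tumours were compared by exact two-sided permutation tests. EdgeR 4.0.16 and DESeq2 1.42.0 on the recovered reads, 3 rescalings, other pseudocounts (0.5 and 8) and filters, an acinar covariate, a replicate block and leaving out tumours were alternatives, 37 per member and contrast; 2 of these choices, leaving out tumours with over 20% acinar reads and the recount of the lists, were made after seeing the data. The limma step was tested on simulated data. Depth per tumour was 6.33 to 21.2 M reads.

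The members and gene lists were chosen with earlier results of these data known. Named are all members, all other family genes in the table and the genes most like each tested member. Of each pathway list, up to 4 genes called with the smallest p in a contrast are named. Pparg, Hdc and Mcpt8 were named after their values were seen. Ptpn6, Jak1, Stat3 and Stat5b are also named outside this rule. Some genes that the rule names are not reported here. Sequences came from RefSeq, 6 members having a promoter entry; Csf1r and Csf2rb are not shown. Python 3.11.15 with pandas 2.3.3, numpy 2.4.6, scipy 1.17.1 and matplotlib 3.10.9 was used.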

Additional observations from a re-analysis of the deposited data

Results flagged for a closer look

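In all, 32 groups of 5 or 6 tumours were examined (8 genes in 4 groups). In 8 of them the gap of a single tumour to its nearest neighbour exceeded a set share of the range of the group. The share was 0.71 for 5 tumours and 0.625 for 6. These limits mark about 1 in 20 groups by chance only where the values are normally distributed. They were applied to normalized counts without a log, so the 8 cannot be set against that rate and serve as a description. Untreated tumour 6 stood apart with 30451 normalized counts of Csf1r and 456 of Il3ra, 5.95 and 2.58 times the median of the other 4. Its summed macrophage markers were 2.98 times the same median, and the cause was not tested. Anti-CD40 tumour 5 stood apart in 3 receptors, with 3846 normalized counts of Csf2rb, 687 of Csf2rb2 and 26556 of Csf1r, which are 2.63, 2.11 and 1.9995 times the median of the other 5. Its summed macrophage markers were 1.99 times that median, and 9 of 12 markers were highest in it. Csf2 stood apart in untreated tumour 1 (3.33 normalized counts), beta-glucan tumour 4 (5.70) and anti-CD40 tumour 4 (3.40), each from 2 to 6 reads. The other untreated tumours lacked reads of Csf2, so any read in tumour 1 alone would have passed the limit.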

How the results depend on the processing

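Counts of members called are given for all 7 contrasts. With equal totals per tumour, anti-CD40 against untreated fell from 2 members to 0; that rescaling moved the median log2 fold change of all genes to -0.56 with anti-CD40, -0.45 with the combination and 0.07 with beta-glucan, and without the acinar markers to -0.27, -0.23 and 0.07. Fitting only the groups of the contrast called 1 member (Csf1r) in the combination against beta-glucan, where 0 were called with all groups. In the combination against anti-CD40, where limma called 0, a pseudocount of 8 called 1 and DESeq2 called 2; DESeq2 also called 1 in the interaction. The cause was not tested. Leaving out 1 tumour at a time gave 4 to 5 members with beta-glucan against untreated, 2 to 4 with anti-CD40 (4 without anti-CD40 tumour 2), 4 to 6 with the combination, 0 to 1 in the combination against beta-glucan, 0 to 2 in the combination against anti-CD40, and 0 to 0 in anti-CD40 against beta-glucan, the interaction, the within-tumour differences and Csf2. For the within-tumour differences 1 ratio alone could not pass in any of these runs, so their 0 to 0 does not speak of stability. No called member reversed its direction in any of the alternatives run.

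The replicate numbers in the labels showed no clear pairing of the tumours. Deviations from group means correlated from -0.27 to 0.34 over 30 pairs with the same number (median 0.03, with 8 pairs over 0.1). Combination tumour 5 is numbered so by its title but otherwise by its description. The number of the title was used for these pairs and for the block below. With the number as a replicate block, Csf2ra with anti-CD40 passed (1.30, limma adjusted p = 0.0468; range over its alternatives 0.0138 to 0.493), so that 3 members were called there in place of 2; the counts of the other contrasts were as without the block. Depth limits Csf2 and Csf3r, read at 0 to 11 and 0 to 74 reads per tumour.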

Other observations

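In 3 of the 4 groups the tumour with the highest Il3ra had the lowest Csf2ra of its group. These were untreated tumour 6 (456 normalized counts of Il3ra and 104 of Csf2ra), anti-CD40 tumour 2 (391 and 154) and combination tumour 4 (367 and 104). Acinar markers took 12.6%, 24.4% and 25.4% of their reads. In the beta-glucan group the highest Il3ra was in tumour 6 (223) and the lowest Csf2ra in tumour 4 (451). The coincidence was noticed in the data and was not tested.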
